A study of Mus musculus with 8 samples.

Results

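The genes described here are the 10 genes of the MHC class I antigen presentation pathway named by symbol: B2m, H2-K1, H2-D1, H2-T23, Tap1, Tap2, Tapbp, Psmb8, Psmb9 and Nlrc5. All 10 are among the 38406 gene symbols of the count table, and all 10 passed the filter that left 14772 genes for testing. They were read in regulatory T cells (Tregs, the CD4 T cell lineage that depends on Foxp3 and holds other immune cells in check) sorted from male C57BL/6 mice, in 4 groups of 2 libraries: muscle Tregs of aged mice, older than 6 months, muscle Tregs of young mice, 2 months of age, and splenic Tregs of aged and of young mice. No mutation, transgene or drug is named for any group. All groups share a muscle injury made by cardiotoxin, a snake venom peptide that lyses muscle fibres, given as 0.9 µg to each of the tibialis anterior, quadriceps and gastrocnemius. Tissue was taken 4 days later, so uninjured muscle is not part of the comparison. Each library holds RNA of 1500 Tregs, amplified by in vitro transcription for 9 hours and by 15 PCR cycles, and the sorting gate is not given in the sources used here. The 2 libraries of each group are described as biological duplicates, with no word on pooling or separate animals, and p-values here cover the spread among those libraries alone.

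MHC class I molecules display peptides of the cell's own proteins to CD8 T cells and NK cells. Proteasomes cut proteins into peptides, the TAP transporter carries these into the endoplasmic reticulum, and tapasin helps load them onto a heavy chain bound to beta-2-microglobulin. Interferons are known to induce the pathway, replacing the constitutive catalytic proteasome subunits with inducible ones to form the immunoproteasome. Nlrc5 is the transactivator that works at class I promoters through factors bound to their X and Y boxes. Most nucleated cells, T cells among them, carry class I.

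The promoters of the members are shown because several members are known targets of the same transactivator. RefSeq (GRCm38.p6) windows were found for 8 of the 10 members, and the 250 bases before the annotated start site are given 5′ to 3′ on the gene's strand. Capitals mark the motif letters searched on both strands: the core of the interferon-stimulated response element (ISRE), TTCNNNGAA (the interferon-gamma-activated site, GAS), GGGNNTTCC (kappaB-like), CCAAT (Y box) and TGACG (X2 box). The 4 windows printed are those of the light chain, of both classical heavy chains and of Tap1.
B2m: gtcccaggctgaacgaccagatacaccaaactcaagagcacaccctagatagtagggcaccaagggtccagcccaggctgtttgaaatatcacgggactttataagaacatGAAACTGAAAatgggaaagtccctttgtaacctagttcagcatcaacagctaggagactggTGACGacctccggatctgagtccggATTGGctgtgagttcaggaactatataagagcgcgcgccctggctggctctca
H2-K1: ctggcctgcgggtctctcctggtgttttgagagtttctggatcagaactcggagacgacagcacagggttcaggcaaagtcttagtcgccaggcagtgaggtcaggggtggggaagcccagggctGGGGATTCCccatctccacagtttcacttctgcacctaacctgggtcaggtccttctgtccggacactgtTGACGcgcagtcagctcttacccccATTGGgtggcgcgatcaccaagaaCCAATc
H2-D1: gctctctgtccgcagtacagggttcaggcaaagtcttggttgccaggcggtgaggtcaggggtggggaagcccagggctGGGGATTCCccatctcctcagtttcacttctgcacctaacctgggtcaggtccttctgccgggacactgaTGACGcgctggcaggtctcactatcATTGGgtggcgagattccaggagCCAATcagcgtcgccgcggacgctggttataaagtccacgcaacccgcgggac
Tap1: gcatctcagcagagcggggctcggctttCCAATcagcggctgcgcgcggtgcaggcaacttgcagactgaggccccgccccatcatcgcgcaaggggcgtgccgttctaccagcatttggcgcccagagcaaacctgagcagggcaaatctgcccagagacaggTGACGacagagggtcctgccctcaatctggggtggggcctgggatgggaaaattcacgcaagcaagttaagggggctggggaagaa
These windows lie at chr2:122147437-122147686 (plus strand), chr17:34000334-34000583 (minus strand), chr17:35262844-35263093 (plus strand) and chr17:34187306-34187555 (plus strand). The H2-K1 and H2-D1 windows were 87.2% identical over 203 aligned bases and hold the kappaB-like match, the X2 box and both Y box matches in the same order. The Tap1 window is also the Psmb9 promoter: the start sites of these genes lie 226 bases apart on opposite strands, and their windows share 225 bases, X2 box and Y box included. The Y box letters were found in 7 of the 8 members' windows and in 33.8% of 32851 windows of this length in the table. The X2 box letters were found in 5 of 8 and in 17.8%, the kappaB-like letters in 2 of 8 and in 4.98%, the ISRE core in 2 of 8 (B2m and H2-T23) and in 2.98%, and the GAS letters in 1 of 8 (Psmb8) and in 7.02%. A match is a description of letters and not evidence of a bound factor, and motifs in other spellings were not searched.

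**Figure D1:**
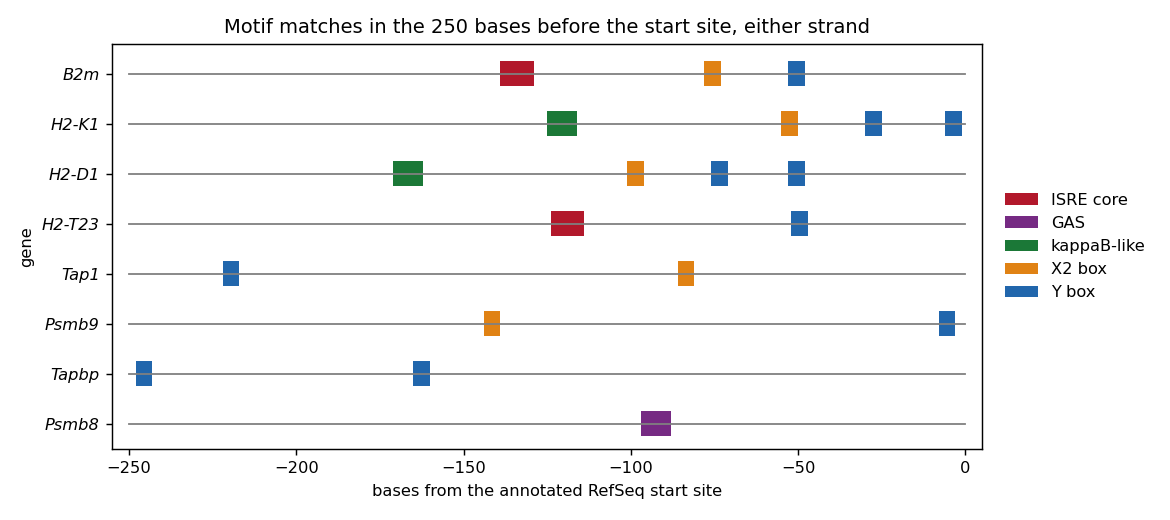
Motif matches on either strand in the 250 bases before the RefSeq start site of 8 members. The horizontal axis is the distance from the start site in bases, and each coloured block is 1 match. H2-K1 and H2-D1 share a layout, and Tap1 and Psmb9 show the same matches read from opposite ends.

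Libraries held from 1969982 to 4008622 counts, and the least read member in any library, Nlrc5 in a young muscle library, had 181 counts. The sort was checked against marker lists: all 7 Treg markers were read in every library, and Foxp3 lay between 15.4 and 41.5 CPM (counts scaled to library size by TMM). Young muscle replicate 1 stood apart in markers of other cells. The summed level of 14 myeloid markers was 928.5 CPM there, against 276.3 to 376.1 CPM in the other 7 libraries, and the macrophage genes C1qa and Lyz2 were at 110.6 and 115.9 CPM there, against 0 and 11.99 CPM in young muscle replicate 2. Cd79a, a B cell receptor component, lay at 0.77 to 9.8 CPM. Summed levels of 7 B cell markers were 338.3 to 387.1 CPM in muscle and 505.2 to 645.1 CPM in spleen. Most of this sum was Ighm, at 222.4 to 270.7 CPM in muscle and 425.8 to 573.0 CPM in spleen, and the list was mixed: of 6 markers tested in young muscle against young spleen, Ighm fell and Ebf1 rose (61.5 and 51.5 CPM against 21.03 and 8.91 CPM). The 7 muscle fibre and satellite cell markers summed to at most 28.5 CPM. The 7 endothelium and fibroblast markers summed to 447.0 CPM in young muscle replicate 1, against 153.2 to 352.6 CPM in the other 7 libraries. Col1a1 and Col3a1 were at 150.5 and 110.2 CPM there. In aged muscle replicate 2, Dcn and Col3a1 were at 30.45 and 28.33 CPM, against 0.37 and 0.74 CPM in aged muscle replicate 1. The CD8 T and NK cell markers summed to at most 42.1 CPM and the erythroid markers to at most 147.9 CPM. The part of these markers in the results was not tested. Each edgeR call of a member or pathway gene that rests on young muscle is given also without its replicate 1, except for Ifngr2. Calls of marker genes are given with all libraries only. In such bulk samples, fewer cells of a type and less RNA per cell cannot be told apart.

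Across the 4 groups, the chains of the class I molecule itself varied little, and the peptide-generating proteasome subunits and Nlrc5 varied most. The SD of log2 CPM over the 8 libraries was 0.13 for H2-K1, 0.18 for H2-D1, 0.20 for H2-T23 and 0.21 for B2m, against 0.39 for Psmb8, 0.53 for Psmb9 and 0.56 for Nlrc5. Young muscle Tregs had the lowest mean of the 4 groups for Tap1, Tap2, Tapbp, H2-T23, Psmb8, Psmb9 and Nlrc5. Against young spleen, Psmb8, Psmb9 and Nlrc5 fell and 0 members rose, 3 of 10 lower where 10.9% of all genes tested were lower and 11.4% higher (edgeR quasi-likelihood test, adjusted p under 0.05). DESeq2 called 4 lower and 0 higher there, as did edgeR at an unadjusted p under 0.05. Against aged spleen, aged muscle had 1 member lower, Psmb9, and 0 higher, where 9.27% of genes were lower and 9.57% higher. DESeq2 called 0 lower and 1 higher, B2m, and at an unadjusted p under 0.05 edgeR had 2 lower and 0 higher. The shares of 9.27% and 9.57% are no background for that unadjusted count. In this comparison a gene at an edgeR p of 0.0511 ranked 5135 among the 14772 genes tested, both directions together. The 2 lower members were thus not shown to be an excess. Against young muscle, aged muscle had 2 members higher, Tap1 and Psmb9, and 0 lower, where 1.14% of genes were higher and 0.88% lower. DESeq2 and an unadjusted p under 0.05 in edgeR each gave 5 higher and 0 lower. With age in spleen 0 members passed in either direction, where 2.08% of genes were higher and 2.17% lower. DESeq2 also gave 0 there, and at an unadjusted p under 0.05 edgeR had 1 member, Tap1. The 2 libraries of each group did not overlap for 5 members higher and 1 lower with age in muscle (21.2% and 20.3% of genes), and for 4 higher and 1 lower with age in spleen (28.8% and 24%). For aged muscle against aged spleen this was so for 1 higher and 5 lower (33.0% and 32.4%). The comparisons share groups, so a level in young muscle enters both the comparison with aged muscle and that with young spleen.

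**Figure D2:**
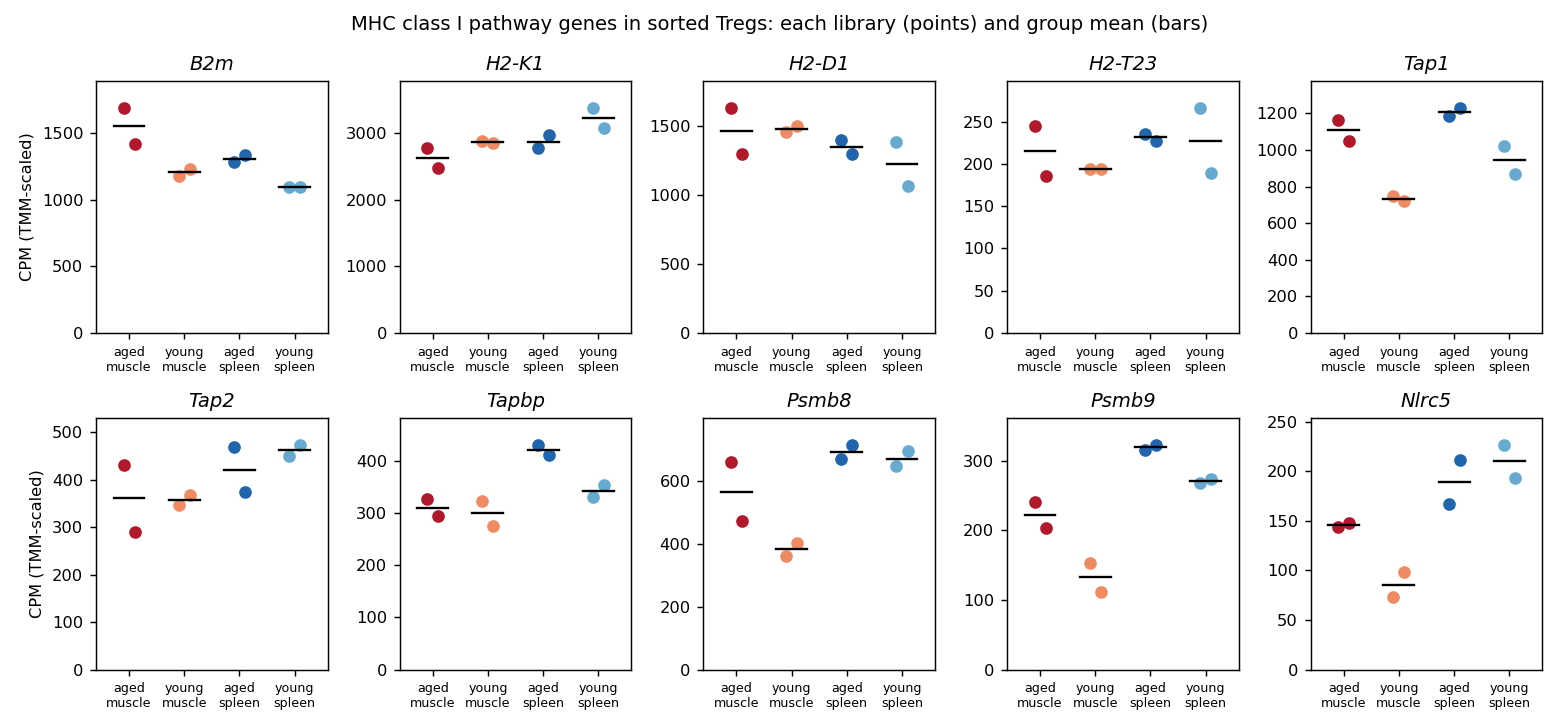
TMM-scaled CPM (vertical axes from 0, 1 scale per gene) of the 10 members in aged muscle, young muscle, aged spleen and young spleen. Points are single libraries and bars are means of 2. Young muscle lies below every other group for Tap1, Psmb8, Psmb9 and Nlrc5, while the H2-K1 points of all groups lie between 2478.5 and 3376 CPM.

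The heavy chains and their light chain were among the most read genes of these cells. H2-K1 (chr17:33996017-34000347, minus strand), the classical heavy chain H-2K, averaged 2899 CPM over the 8 libraries, above 99.9% of the genes tested. Per length of the longest coding transcript it was the highest of the 10 members at 1791 CPM per kilobase, followed by B2m at 1499.5 and H2-D1 at 655, and Nlrc5 was the lowest at 20.8 CPM per kilobase. How reads spread along transcripts after the amplification is not known from gene counts. H2-K1 had 2778 and 2478.5 CPM in aged muscle, 2886 and 2851 CPM in young muscle, 2775 and 2969 CPM in aged spleen, and 3376 and 3078 CPM in young spleen. Young spleen was the highest group, and its libraries overlapped with no other group. The differences were small: a log2 fold change of -0.13 ± 0.14 (SE) for aged minus young muscle, with a 95% interval from -0.41 to 0.16, and of -0.17 ± 0.14 for young muscle minus young spleen, with an interval from -0.46 to 0.12 (edgeR adjusted p = 0.70 and 0.38).

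H2-D1 (chr17:35262730-35267499, plus strand), the classical heavy chain H-2D, had 1626.5 and 1298 CPM in aged muscle and 1454 and 1498 CPM in young muscle. It had 1393 and 1295 CPM in aged spleen and 1380.5 and 1064 CPM in young spleen. Neighbouring groups in the order of its means overlapped throughout. Its values over the 5 comparisons ran on the log2 scale from -0.15 for the difference of age effects, with an interval from -0.63 to 0.33, to 0.27 for tissue in young mice, with an interval from -0.07 to 0.61, and none passed. The reads of H2-K1 and H2-D1 can be split or dropped in counting, since 8.8% of 50-base stretches of the H2-K1 transcript and 14.3% of those of H2-D1 also occur in transcripts of other genes, mainly other class I genes. With the counts of both genes summed, the log2 fold changes were -0.09 for age in muscle, -0.08 for age in spleen, -0.03 for tissue in young mice and -0.04 for tissue in aged mice, and none passed. The log2 ratio of H2-K1 to H2-D1 counts was 0.77 and 0.93 in aged muscle, 0.99 and 0.93 in young muscle, 0.99 and 1.20 in aged spleen, and 1.29 and 1.53 in young spleen. Both young spleen libraries lay above all other libraries on this ratio.

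H2-T23 (chr17:36029773-36032855, minus strand) encodes the heavy chain of Qa-1, a non-classical molecule read by inhibitory receptors of NK and CD8 T cells. It had 244.3 and 186.1 CPM in aged muscle and 194.3 and 193.8 CPM in young muscle. In aged spleen it had 235.6 and 226.6 CPM, and in young spleen 265.9 and 189.1 CPM. Neighbouring groups overlapped, no comparison passed, and 29.8% of its 50-base stretches occur in other transcripts. B2m (chr2:122147686-122153083, plus strand), the light chain shared by all class I molecules, had 1687 and 1415 CPM in aged muscle and 1181 and 1232 CPM in young muscle. It had 1280.5 and 1333 CPM in aged spleen and 1092 and 1095 CPM in young spleen. Both aged groups lay above the young group of the same tissue without overlap, with log2 fold changes of 0.36 ± 0.14 in muscle and 0.26 ± 0.14 in spleen (SE), neither past the threshold (edgeR adjusted p = 0.22 and 0.38). The value in muscle was 0.33 without young muscle replicate 1. B2m and H2-K1 had a Pearson's r of -0.66 over the 8 libraries, the lowest of the 45 pairs of members.

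Of the transporter and tapasin genes, Tap1 passed with age in muscle, and Tap2 and Tapbp passed in none of the 5 comparisons by edgeR. Tap1 (chr17:34187553-34197225, plus strand), which with Tap2 forms the peptide transporter, had 1164 and 1050 CPM in aged muscle and 750 and 719 CPM in young muscle. It had 1188 and 1229 CPM in aged spleen and 1022 and 866 CPM in young spleen. The 4 groups did not overlap, in the order aged spleen, aged muscle, young spleen and young muscle. Tap1 rose with age in muscle 1.51-fold, or by 0.59 ± 0.14 (SE) on the log2 scale (edgeR adjusted p = 0.046), and had 0.36 ± 0.14 with age in spleen (edgeR adjusted p = 0.21). It stood at -0.36 ± 0.14 for young muscle against young spleen (edgeR adjusted p = 0.081), where 4 of 14 alternatives called it lower, the DESeq2 test among them. The call in muscle held without aged muscle replicate 2 (0.665). It ended without either young muscle library (log2 fold changes 0.62 and 0.56), without aged muscle replicate 1 (0.52) and without any single spleen library (0.59 each), and with only the 2 groups compared (0.59, edgeR adjusted p = 0.33).

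Tap2 (chr17:34203527-34216321, plus strand) had 431.3 and 290.1 CPM in aged muscle and 347.6 and 367.2 CPM in young muscle. In spleen it had 468.8 and 373.6 CPM in aged and 450.5 and 473.5 CPM in young mice. Neighbouring groups in the order of its means overlapped. Its log2 fold change with age in muscle was 0.015 ± 0.185 (SE), against 0.59 for Tap1, and its lowest value, tissue in young mice, was -0.37 ± 0.185 (edgeR adjusted p = 0.16). Tapbp (chr17:33915899-33929292, plus strand), which encodes tapasin, had 327.4 and 293.1 CPM in aged muscle, 322.7 and 275.2 CPM in young muscle, 430.3 and 409.9 CPM in aged spleen, and 330.0 and 352.6 CPM in young spleen. Aged spleen was the highest group for Tapbp and overlapped with no other. Tapbp was lower in aged muscle than in aged spleen by a log2 fold change of -0.44 ± 0.15 that missed the threshold (edgeR adjusted p = 0.054), and 5 of 14 alternatives called it. Exons of Tapbp share 904 bases with the antisense gene Gm19412, which is not among the symbols of the count table. Those of Tap2 share 533 with Gm15821, and those of Psmb8 share 498 with Gm20496. These overlaps are on the opposite strand. On the same strand, exons of Tapbp share 149 bases with Zbtb22, which is in the count table. The strand setting of the counting is not given in the sources used here.

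Both inducible proteasome subunits among the members were lower in both young muscle libraries than in the other 6. Psmb8 (chr17:34197721-34201454, plus strand), the inducible chymotrypsin-like subunit that replaces Psmb5, had 659.6 and 471.1 CPM in aged muscle and 361.7 and 403.6 CPM in young muscle. It had 670.1 and 713.9 CPM in aged spleen and 644.9 and 693.2 CPM in young spleen. Psmb8 was lower in young muscle than in young spleen, at 0.57 times its level there, with a log2 difference of -0.81 ± 0.17 (SE) and an edgeR adjusted p = 0.0032. Without young muscle replicate 1 the value was -0.73 (edgeR adjusted p = 0.018), and the call held under all 14 alternatives run, which ranged from -0.89 to -0.69. In aged muscle Psmb8 stood 0.56 ± 0.17 above young muscle on the log2 scale (edgeR adjusted p = 0.11, DESeq2 adjusted p = 0.015), or 0.31 without aged muscle replicate 1 and 0.49 without young muscle replicate 1, and -0.29 ± 0.17 from aged spleen (edgeR adjusted p = 0.23). With age in spleen its log2 fold change was 0.05 ± 0.17.

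Psmb9 (chr17:34181987-34187764, minus strand), the inducible caspase-like-site subunit that replaces Psmb6, had 240.6 and 203.8 CPM in aged muscle and 153.3 and 111.4 CPM in young muscle. It had 315.3 and 322.7 CPM in aged spleen and 268.3 and 273.5 CPM in young spleen. The 4 groups did not overlap, and both spleen groups lay above both muscle groups. Psmb9 was lower in muscle at both ages, with a log2 fold change of -1.03 ± 0.18 in young mice (edgeR adjusted p = 0.00075), 0.49 times the spleen level, and of -0.52 ± 0.17 in aged mice (edgeR adjusted p = 0.046). The call in young mice held under all 14 alternatives, from -1.28 without young muscle replicate 1 to -0.82 without replicate 2. That in aged mice ended without aged muscle replicate 2 (-0.41), without any single spleen library (-0.54 to -0.50), with DESeq2 size factors or test (-0.47 each) and with only the 2 groups compared (-0.53). With age in muscle Psmb9 rose by 0.74 ± 0.18, 1.68-fold (edgeR adjusted p = 0.042). That call ended without young muscle replicate 2 (0.54), aged muscle replicate 1 (0.625) or any single spleen library (0.745 each), and with only the 2 groups compared (0.75, edgeR adjusted p = 0.34), and stood at 1.00 without young muscle replicate 1. Exons of Psmb9 and Tap1 share 212 bases at their facing ends, so reads there may be assigned to either gene or dropped. The log2 ratio of Psmb9 to Tap1 counts was lower in muscle, at -2.27 and -2.36 in aged and -2.29 and -2.69 in young muscle, against -1.91 and -1.93 in aged and -1.93 and -1.66 in young spleen. The muscle and spleen libraries did not overlap on this ratio.

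**Figure D3:**
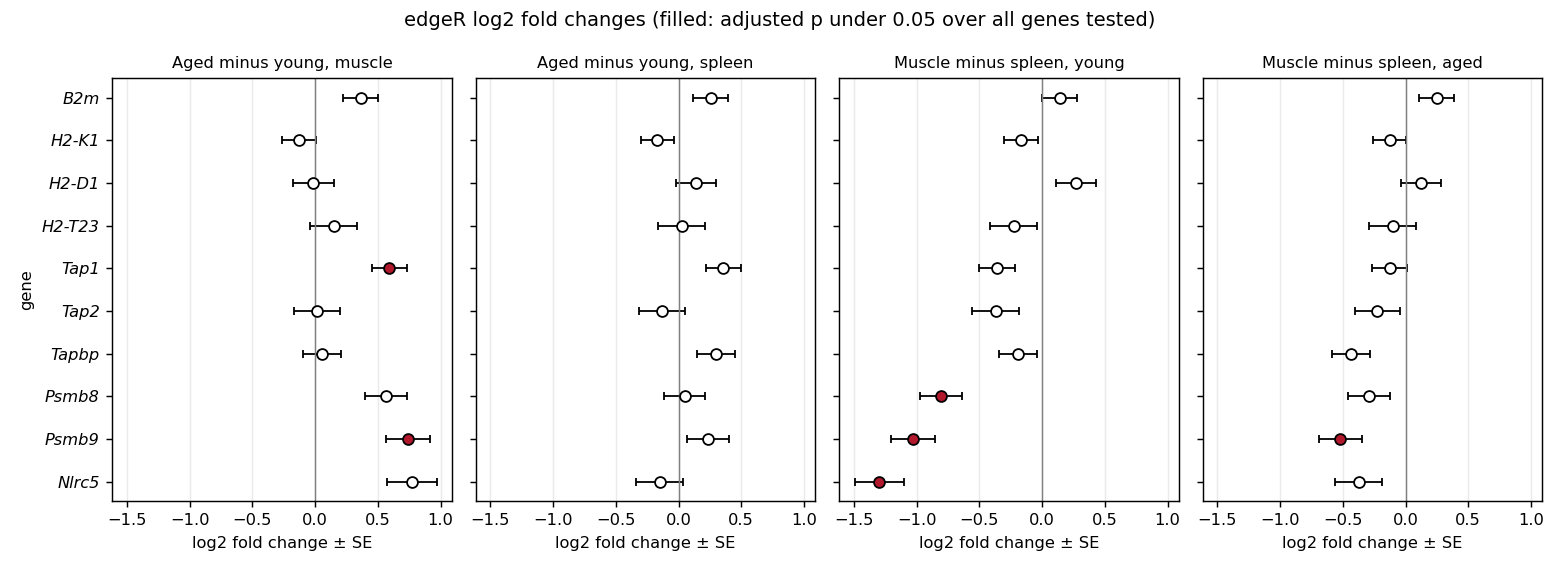
Log2 fold changes with standard errors (horizontal axes) of the 10 members in 4 comparisons, fitted by edgeR to all 8 libraries. Filled points passed an adjusted p of 0.05 over all genes tested. The fall of Psmb8, Psmb9 and Nlrc5 in young muscle against young spleen, from -0.81 to -1.30, is the largest departure from 0.

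The inducible subunits were also set against their constitutive partners within each library, a ratio that no scaling between libraries can move. The log2 ratio of Psmb8 to Psmb5 counts was 1.27 and 1.28 in aged muscle, 0.08 and 0.45 in young muscle, 1.60 and 1.77 in aged spleen, and 1.77 and 1.38 in young spleen. In linear terms Psmb8 had 2.42 times the reads of Psmb5 in aged muscle, 1.20 times in young muscle, 3.21 times in aged spleen and 2.98 times in young spleen. The log2 ratio of Psmb9 to Psmb6 was 1.09 and 1.14 in aged muscle, 0.43 and 0.52 in young muscle, 1.53 and 1.79 in aged spleen, and 1.24 and 1.47 in young spleen. For both pairs the young muscle libraries lay below the other 6, and the aged muscle libraries lay between young muscle and spleen. The third pair was low in muscle at both ages: Psmb10 to Psmb7 had log2 ratios of 0.02 and -0.35 in aged muscle and -0.36 and -0.27 in young muscle, against 1.17 and 0.89 in aged spleen and 0.92 and 0.57 in young spleen. The aged and young muscle libraries overlapped for this pair. Of the genes behind these ratios, Psmb10, the third inducible subunit, was lower in young muscle than in young spleen by a log2 fold change of -1.13 ± 0.20 (edgeR adjusted p = 0.00096, held under all 14 alternatives, -1.09 without young muscle replicate 1) and in aged muscle than in aged spleen by -0.83 ± 0.19 (edgeR adjusted p = 0.0090). The constitutive Psmb5 was at 343.2 and 295.2 CPM in young muscle and 189.3 and 265.4 CPM in young spleen (log2 fold change 0.49 ± 0.20, edgeR adjusted p = 0.089), a difference that missed the threshold. Psmb6 and Psmb7 differed there by -0.15 and -0.06 and did not pass. Of these 3 constitutive subunits, 0 passed in any of the 5 comparisons by edgeR or DESeq2, with 0 to 1 at an unadjusted p under 0.05. The Psmb10 call in aged mice ended without aged muscle replicate 2 (-0.57) or either aged spleen library (-0.81 and -0.85).

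**Figure D4:**
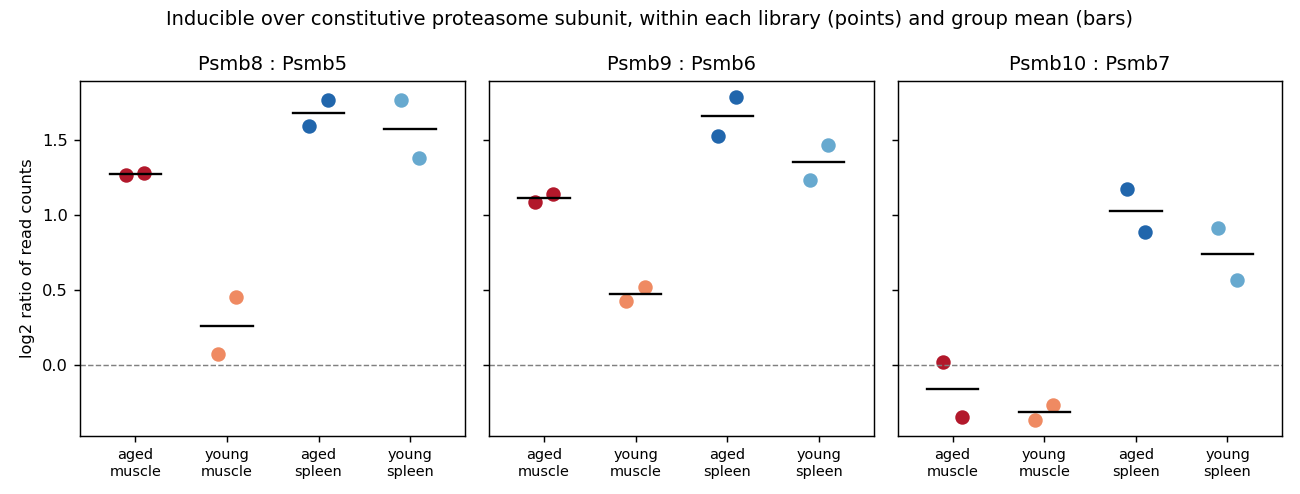
Log2 ratio of read counts of each inducible proteasome subunit to the constitutive subunit it replaces (vertical axis, 0 means equal reads), in single libraries (points) with group means (bars). Young muscle is lowest for Psmb8 to Psmb5, at 0.08 and 0.45, and for Psmb9 to Psmb6, at 0.43 and 0.52, while Psmb10 to Psmb7 is low in all 4 muscle libraries.

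Nlrc5 (chr8:94434356-94527272, plus strand), the class I transactivator, showed the largest difference of the 10. It had 143.4 and 148.0 CPM in aged muscle and 72.8 and 98.4 CPM in young muscle. It had 166.5 and 211.7 CPM in aged spleen and 226.7 and 193.0 CPM in young spleen. Young muscle lay below all other libraries, aged muscle lay between young muscle and spleen without overlap, and the spleen groups overlapped each other. Nlrc5 in young muscle stood at 0.41 times its level in young spleen, a log2 fold change of -1.30 ± 0.20 (edgeR adjusted p = 0.00027), and the call held under all 14 alternatives, from -1.525 without young muscle replicate 2 to -1.09 without replicate 1. Its log2 fold change with age was 0.77 ± 0.20 in muscle, with an interval from 0.35 to 1.19, and -0.15 ± 0.19 in spleen, with an interval from -0.55 to 0.25 (edgeR adjusted p = 0.061 and 0.76). The value in muscle missed the threshold, 5 of 14 alternatives called it, and without young muscle replicate 1 it was 0.57 (edgeR adjusted p = 0.37). The aged tissue difference, -0.37 ± 0.19, did not pass (edgeR adjusted p = 0.17).

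Whether age acted differently in the tissues was tested directly, as the age effect in muscle minus that in spleen. No member passed by edgeR or DESeq2, where 1.35% of genes were higher and 1.17% lower. At an unadjusted p under 0.05 edgeR had 2 members, Nlrc5 at 0.92 ± 0.27 (SE, edgeR, adjusted p = 0.10) and Psmb8 at 0.52 ± 0.24 (edgeR adjusted p = 0.37). Without young muscle replicate 1 these were 0.72 for Nlrc5 and 0.44 for Psmb8. The 10 members had a median of 0.14 in this comparison, against -0.04 over all genes tested. Their median log2 fold change was 0.26 for age in muscle, 0.09 for age in spleen, -0.30 for tissue in young mice and -0.18 for tissue in aged mice, against 0.03, 0.05, 0.07 and 0.03 over all genes. The libraries of young muscle and young spleen did not overlap for 9 members, 7 lower and 2 higher in muscle, where 30.0% and 31.7% of genes did so in these directions.

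The 10 members together made up 0.955% and 0.862% of all counts in aged muscle, 0.74% and 0.79% in young muscle, 0.91% and 0.93% in aged spleen, and 0.82% and 0.76% in young spleen. After scaling, the sums were 9303 and 7833 CPM in aged muscle, 7723 and 7750 CPM in young muscle, 8924 and 9084 CPM in aged spleen, and 9057 and 8278 CPM in young spleen. H2-K1, H2-D1 and B2m gave 61.1% to 72.0% of the members' reads, with the highest shares in young muscle (71.5% and 72.0%). The other 7 members summed to 3211 and 2642 CPM in aged muscle, 2202 and 2168 CPM in young muscle, 3475 and 3487 CPM in aged spleen, and 3208 and 3041 CPM in young spleen, with young muscle the lowest on this sum.

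Among themselves the members split by how they varied. Over the 8 libraries, which share groups and depth, the Pearson's r of log2 CPM was 0.91 between Psmb8 and Psmb9, 0.90 between Psmb8 and Nlrc5, 0.84 between Psmb9 and Nlrc5 and 0.83 between Tap1 and Psmb9. H2-D1 ran the other way, at -0.48 with Nlrc5 and -0.40 with Psmb9. The median of the 45 pairs was 0.47. Of 8122 genes outside the lists whose mean log2 CPM reached 4, those closest to the mean profile of the members were Pgm2 (r = 0.96), Parp14 (0.95), Med28 (0.94), Unc13d (0.93), Pik3r4 (0.92) and Mrps34 (0.92), a description over 8 libraries. Parp14 had 170.2 and 130.7 CPM in aged muscle, 95.8 and 114.9 CPM in young muscle, 190.3 and 187.3 CPM in aged spleen, and 171.0 and 146.8 CPM in young spleen.

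Of the listed factors known to act on class I promoters, Irf2 (-0.94 ± 0.17), the Y box binding subunit gene Nfya (-1.27 ± 0.25) and Creb1 (-0.61 ± 0.19) fell in young muscle against young spleen, by log2 fold changes given with their SE (edgeR adjusted p = 0.00097, 0.0021 and 0.035). Without young muscle replicate 1 the values were -0.96 for Irf2, -1.36 for Nfya and -0.74 for Creb1, and each passed. Irf2, which binds interferon response elements, had 105.0 and 111.6 CPM in aged muscle, 133.2 and 130.9 CPM in young muscle, 197.4 and 246.3 CPM in aged spleen, and 258.0 and 249.9 CPM in young spleen. It was lower in muscle at both ages without overlap, and fell in aged muscle against aged spleen by 1.03 on the log2 scale (edgeR adjusted p = 0.00069). Irf1, an interferon-induced activator of class I promoters, was not lowest in young muscle: it had 620.1 and 587.4 CPM in aged muscle, 517.0 and 518.5 CPM in young muscle, 703.9 and 669.1 CPM in aged spleen and 477.6 and 485.1 CPM in young spleen. Irf1 rose with age in spleen by 0.51 ± 0.14 (edgeR adjusted p = 0.048), a call that ended without any single spleen library (0.475 to 0.68 over its alternatives) and with no filter. Rfx5, which binds the X box, was read at 3.22 to 14.7 CPM, and its log2 fold change of -1.35 ± 0.64 in young muscle against young spleen did not pass (edgeR adjusted p = 0.14). With age in muscle Irf9 (0.78 ± 0.18) and Stat2 (0.97 ± 0.23), which act together at the ISRE, rose (edgeR adjusted p = 0.041 and 0.042). The calls of Irf9 and Stat2 ended without young muscle replicate 1 (0.61 for Irf9 and 0.89 for Stat2), without either aged muscle library or any single spleen library, and with only the 2 groups compared. That of Creb1 ended without young muscle replicate 2 or any single spleen library, with library-size scaling and with DESeq2 (-0.74 to -0.50 over its alternatives).

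The other genes of the pathway were described by lists. Of 9 tested of 11 other class I heavy chain genes, 0 passed in any of the 5 comparisons by edgeR or DESeq2, with 0 to 3 at an unadjusted p under 0.05. Their median log2 fold change was 0.28 for age in muscle, 0.39 for age in spleen, -0.44 for tissue in young mice and -0.21 for tissue in aged mice. Of 4 further inducible proteasome parts, 2 fell and 0 rose in young muscle against young spleen, where 10.9% of all genes were lower. These were Psmb10 and the proteasome activator gene Psme1 (-0.64 ± 0.20). The same 2 genes fell in aged muscle against aged spleen, where 9.27% of all genes were lower, Psme1 by -0.60 ± 0.19. The Psme1 call in young mice ended without young muscle replicate 1 (-0.52) and both Psme1 calls ended without any single spleen library, that in aged mice also without aged muscle replicate 2 (-0.34). Of 11 other core proteasome subunits, 0 passed between the tissues at either age by edgeR, where 2 were higher at an unadjusted p under 0.05 in young mice and 1 lower in aged mice. DESeq2 called 1 of these higher in young mice. With age in muscle 1 of the 11 fell, Psmb1, where 0.88% of all genes were lower. Psmb1 had 576.5 and 515.1 CPM in aged and 1052 and 800.8 CPM in young muscle (log2 fold change -0.76 ± 0.16). The Psmb1 call ended without young muscle replicate 1 (-0.55), aged muscle replicate 2 or any single spleen library, and with only the 2 groups compared. Of 8 genes of peptide loading and trimming, 1 fell in young muscle against young spleen, the trimming peptidase gene Erap1 (-1.14 ± 0.30). This was near the share of 10.9% of all genes that were lower there. With age 0 passed in either tissue by edgeR or DESeq2 (1 lower in muscle and 0 in spleen at an unadjusted p under 0.05). In aged muscle against aged spleen all 8 log2 fold changes were negative, with a median of -0.30. There 0 passed by edgeR or DESeq2, and 4 were lower at an unadjusted p under 0.05 in edgeR. For the difference of age effects DESeq2 called 1 lower and edgeR 0. The Erap1 call ended without young spleen replicate 1 (-0.795) and held without young muscle replicate 1 (-1.11).

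Genes of interferon sensing differed in both directions between the tissues. Of 8 listed receptors, kinases and inhibitors, 2 rose and 3 fell in young muscle against young spleen, against shares of 11.4% and 10.9% over all genes. Ifngr1 and Jak2 (0.71 ± 0.20) rose, and Socs1, Jak1 (-0.60 ± 0.15) and Ifngr2 fell. Without young muscle replicate 1 the Jak1 call ended (-0.54), and Jak2 stood at 0.80. In aged muscle against aged spleen 1 rose and 2 fell, where 9.57% of genes were higher and 9.27% lower. DESeq2 called 2 higher and 2 lower in young mice, and 1 higher and 1 lower in aged mice. Ifngr1, the ligand-binding chain of the interferon-gamma receptor, had 763.9 and 626.7 CPM in aged muscle and 651.8 and 663.9 CPM in young muscle, against 239.0 and 239.9 CPM in aged spleen and 251.4 and 254.2 CPM in young spleen. It rose by 1.38 ± 0.15 in young and 1.54 ± 0.15 in aged mice on the log2 scale (edgeR adjusted p = 1.3e-05 and 8.1e-06), under all 14 alternatives at either age (1.39 in young mice without young muscle replicate 1). Socs1, an interferon-induced inhibitor of JAK kinases, had 152.3 and 144.2 CPM in aged muscle, 119.9 and 115.9 CPM in young muscle, 198.1 and 226.6 CPM in aged spleen, and 213.1 and 232.1 CPM in young spleen. It fell by 0.92 in young mice, under all 14 alternatives (-0.94 without young muscle replicate 1), and by 0.52 in aged mice, where 8 of 14 alternatives ended the call. With age 0 of the 8 passed in either tissue by edgeR. At an unadjusted p under 0.05 edgeR had 0 in muscle and 3 in spleen, and DESeq2 called 0 in muscle and 1 in spleen.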

How the data were processed

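RNA-seq of sorted mouse Tregs was read as 1 table of gene counts for 8 libraries in 4 groups of 2, as deposited by the authors. Per the submitters' processing notes, TopHat2, SAMtools 0.1.19, Picard and HTSeq were used with the mm10 build. Neither the annotation nor the strand setting is given in the sources used here. Library totals of 1969982 to 4008622 counts limit the precision of low genes.

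Counts were fitted with edgeR 4.0.16 (R 4.3.3; quasi-likelihood, robust, TMM, filterByExpr) over all 8 libraries with 1 coefficient per group, leaving 14772 genes and 4 residual degrees of freedom. Tests were two-sided, with Benjamini-Hochberg adjustment over all genes tested and a threshold of 0.05. Shares over all genes are for this edgeR threshold, and none is given for DESeq2 or for an unadjusted p. SE was taken as the absolute log2 fold change over the square root of F, and intervals are 95%. The 5 comparisons were age in each tissue, tissue at each age and the difference of age effects. Alternatives were DESeq2 1.42.0 (size factors, test), library-size scaling, no filter, only the groups compared, a replicate block and leaving out each library.

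The members and lists were chosen with earlier results of these data known. Named genes are the 10 members, per pathway list at most 4 genes past the threshold, 7 fixed partners and the 6 genes most like the members. Ratios add 0.5 to each count. Positions are from GRCm38, and promoter windows, aligned with Biopython 1.88, are from RefSeq. Of the marker genes, 2 were found under an older symbol and 2 were not matched. The results of 1 listed transcription factor, and the counts over its list, are not reported here.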

Additional observations from a re-analysis of the deposited data

Results flagged for a closer look

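H2-DMb2, a chain of the class II peptide exchange factor and not one of the 10 members, differed between the tissues in its age effect. The age effect in muscle minus that in spleen was -5.552 on the log2 scale (edgeR adjusted p = 0.036). Among the members and the pathway genes named, this test of the difference passed for H2-DMb2 only. Its levels were 0.372 and 1.69 CPM in aged muscle, 9.66 and 1.499 CPM in young muscle, 13.2 and 34.6 CPM in aged spleen, and 2.34 and 3.10 CPM in young spleen. The gene was thus low in most libraries, and the call ended in 6 of 13 alternatives, young muscle replicate 1 left out among them, with values from -6.88 to -3.66. Of the marker lists, 1 of 7 Treg markers was higher and 1 lower in the same test (Ctla4 and Il2ra). Of 12 myeloid markers tested, 0 were higher and 2 lower (Fcer1g and Tyrobp), where 1.35% of all genes were higher and 1.17% lower. Fcer1g and Tyrobp were at 39.8 and 74.0 CPM in young muscle replicate 1, against 7.99 CPM each in replicate 2.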

How the results depend on the processing

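The 6 calls of members kept their direction in all 84 values under the alternatives run and lost the threshold in 23, 18 of them with a library left out. The calls of Psmb8, Psmb9 and Nlrc5 for tissue in young mice were not lost. With age in muscle, 2 members were higher, against 5 with library-size scaling, 5 with the DESeq2 test, 0 with only the groups compared and 0 to 3 with 1 library left out. Over all genes, 33 were higher and 17 lower with age in muscle with only the groups compared, against 168 and 130 in the fit to all 8 libraries. With age in spleen, 0 members were higher, against 3 with library-size scaling and 1 with only the groups compared. Over all genes, 307 were higher with age in spleen, against 489 and 928 under these 2 alternatives. For the difference of age effects, 0 were higher, against 0 to 1 with 1 library left out, Nlrc5 without young muscle replicate 2. For tissue in young mice, 0 were higher, against 1 with library-size scaling, H2-D1. For tissue in aged mice, 0 were higher, against 1 with the DESeq2 test, and 1 was lower, against 0 with DESeq2 size factors, the DESeq2 test or only the groups compared, 2 with library-size scaling or the replicate block, and 0 to 4 with 1 library left out. The cause was not tested. Library-size scaling moved the median log2 fold change of all genes by 0.119 for age in muscle, 0.165 for age in spleen and 0.114 for tissue in young mice.

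Whether equal replicate numbers mark paired libraries is not known from the labels. Correlations between groups of the differences between replicates ran from -0.065 to 0.256, and with 1 such difference per group they cannot settle it. The replicate block gave 2 lower members for tissue in aged mice adding Tapbp (-0.438), called Nlrc5 for age in muscle (0.778) and Tap1 for tissue in young mice (-0.360), and turned Tap2 for age in muscle to -0.004. Over all genes it gave 263 higher and 216 lower with age in muscle, against 168 and 130 without it, and 469 higher with age in spleen, against 307.

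Among values that were not called, library-size scaling turned H2-K1 to -0.012 for the difference of age effects, H2-D1 to 0.097 for age in muscle, Tap2 to 0.033 and Nlrc5 to 0.017 for age in spleen, and Psmb7 to 0.053 for tissue in young mice. Summing H2-K1 and H2-D1 counts, an alternative chosen after seeing the data, gave -0.009 for the difference of age effects. With 1 library left out, other values that were not called changed sign. The log2 ranges for the difference of age effects were B2m -0.006 to 0.227, H2-K1 -0.026 to 0.122, H2-D1 -0.351 to 0.025, H2-T23 -0.14 to 0.352 and Tap2 -0.147 to 0.404. The log2 ranges for age in muscle were H2-D1 -0.181 to 0.14, H2-T23 -0.056 to 0.332, Tap2 -0.296 to 0.272, Tapbp -0.056 to 0.173 and Psmb6 -0.15 to 0.406. The log2 ranges for age in spleen were H2-D1 -0.039 to 0.338, H2-T23 -0.202 to 0.29, Tap2 -0.307 to 0.021, Psmb8 -0.003 to 0.101 and Nlrc5 -0.333 to 0.014. The log2 ranges for tissue in aged mice were H2-D1 -0.027 to 0.275, H2-T23 -0.29 to 0.08 and Tap2 -0.516 to 0.033. The log2 ranges for tissue in young mice were H2-T23 -0.454 to 0.038 and Psmb6 -0.454 to 0.102.

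The summed level of the members was 7616.8 CPM with library-size scaling and 7803.2 CPM with DESeq2 size factors in young muscle (7736.3 CPM with TMM), 9194.5 CPM and 8769.2 CPM in aged spleen (9004.0 CPM), and 7896.2 CPM with library-size scaling in young spleen (8667.6 CPM).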

Other observations

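The class II genes, which present peptides to CD4 T cells and are usually read from B cells and myeloid cells in mice, were read in all groups, and Cd74 rose with age in both tissues. Cd74, the invariant chain, had 290.9 and 222.9 CPM in aged muscle and 72.4 and 43.0 CPM in young muscle, against 293.5 and 325.4 CPM in aged spleen and 46.7 and 35.6 CPM in young spleen. It rose with age by 2.14 ± 0.24 in muscle and 2.91 ± 0.25 in spleen on the log2 scale (SE, edgeR, adjusted p = 0.00022 and 1.2e-05), under all 14 alternatives in either tissue, and by 2.58 in muscle without young muscle replicate 1. With age in muscle, Cd74 and H2-DMa (1.53 ± 0.26) passed among 9 listed class II genes, 2 higher and 0 lower, where 1.14% of all genes were higher and 0.88% lower. In spleen 1 was higher, Cd74, and 0 lower, where 2.08% were higher and 2.17% lower. At an unadjusted p under 0.05 edgeR had 2 higher and 1 lower in muscle, and 6 higher and 1 lower in spleen. The median log2 fold change of the 9 was 0.44 in muscle and 1.70 in spleen. The H2-DMa call ended with only the groups compared (edgeR adjusted p = 0.15), and without young muscle replicate 1 it was 1.87 and passed. DESeq2 called 2 higher in muscle and 3 in spleen with age, and 0 lower in either. In young muscle against young spleen 3 of the 9 fell and 0 rose, where 10.9% of all genes were lower. These were H2-Ob, H2-DMa and H2-Oa, at -1.72, -1.59 and -1.78, or -1.53, -1.935 and -1.75 without young muscle replicate 1. There 6 of the 9 values were positive. In aged muscle against aged spleen 3 fell (H2-Oa, H2-DMb2 and H2-Ob) and 0 rose, where 9.27% of genes were lower. All 9 log2 fold changes were negative there.

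Summed levels of markers of the cells that carry class II were higher with age in spleen and not in muscle, and 1 gene made up most of each sum in spleen. These were Ctss for the myeloid list, at 269.9 and 246.0 CPM in aged and 227.6 and 199.5 CPM in young spleen, and Ighm for the B cell list, at 573.0 and 540.5 CPM in aged and 425.8 and 439.4 CPM in young spleen. Summed myeloid markers were 303.5 and 299.4 CPM in aged muscle against 928.5 and 315.2 CPM in young muscle, and 376.1 and 348.4 CPM in aged spleen against 334.2 and 276.3 CPM in young spleen. Of 12 myeloid markers tested, 9 had a positive log2 fold change with age in spleen, with a median of 0.40, and 0 passed by edgeR or DESeq2 (1 at an unadjusted p under 0.05). Summed B cell markers were 338.6 and 338.3 CPM in aged muscle, 344.4 and 387.1 CPM in young muscle, 645.1 and 641.6 CPM in aged spleen and 507.1 and 505.2 CPM in young spleen. Of 6 B cell markers tested, 5 had a positive log2 fold change with age in spleen, and 0 passed by edgeR or DESeq2 (1 at an unadjusted p under 0.05 in edgeR). The part of the myeloid and B cell markers in the class II levels was not tested.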
